A study of Mus musculus with 24 samples.

Results

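The comparison described here is C2C12 myoblasts given an siRNA against Keap1 (siKeap1) against C2C12 myoblasts given a non-targeting siRNA (siCont). C2C12 is an established mouse myoblast line that fuses into myotubes when serum is withdrawn. All cells were undifferentiated, grown below confluence in DMEM with 10% fetal bovine serum, and harvested 48 h after the siRNA was added. Libraries were chosen by the siRNA named in their labels: 3 siCont and 3 siKeap1 libraries, 6 of the 12 in the series. Each library was sequenced in 2 runs, so 12 of the 24 deposited samples belong to it, and the runs of a library were summed. The other 6 libraries received an siRNA against Fem1b, alone (siFem1b) or with siKeap1 (siFem1b/Keap1), for the same time. They share the estimate of spread, and they are described only where the effect of siKeap1 was compared between cells with and without siFem1b. Each siRNA was a single duplex, and in this comparison the labels give the parental line with no transgene. The labels call the libraries triplicates without saying that they came from separate cultures, so what the p-values measure is how far these libraries differ from each other, and that spread may be technical.

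KEAP1 is the substrate adaptor of a CUL3 ubiquitin ligase. In unstressed cells it binds the transcription factor NRF2 (gene Nfe2l2) and directs its degradation; electrophiles and oxidants modify KEAP1 cysteines, and NRF2 then accumulates. With a small MAF partner NRF2 binds antioxidant response elements near genes of glutathione synthesis, thioredoxin reduction, NADPH supply, quinone and aldehyde detoxification, and heme and iron handling. In muscle these genes buffer the oxidants made by contraction and by differentiation.

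The sequences of the 2 siRNAs are given because the comparison rests on 1 duplex against 1 control duplex. Each is printed 5′ to 3′ as the sense strand, then the guide computed as its reverse complement. Capitals mark guide bases 2 to 8, the seed, and their complement in the sense strand.
siKeap1 sense: gcgccaauguuGACACGGa
siKeap1 guide: uCCGUGUCaacauuggcgc
siCont sense: ugguuuacaugUUUUCUGa
siCont guide: uCAGAAAAcauguaaacca
All 19 bases of the siKeap1 sense strand match the coding sequence of Keap1 (GRCm38, chr9:21231850-21231868, minus strand), in exon 4 of 6 in 4 annotated transcripts and exon 3 of 5 in 1. The siCont sense strand matches no annotated transcript over its full length.

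Summed counts per library ran from 33057300 to 43256300 (to the nearest 100) in the 6 libraries, with 18690 to 19589 genes detected and 1.74 to 1.93% of counts on the mitochondrial chromosome. The fewest genes were detected in siCont replicate 2 (18690), beside 19448 and 19476 in siCont replicates 1 and 3. On the second principal component of the 12 libraries, which held 24.5% of the variance, siCont libraries lay between -20.19 and -19.32 and siKeap1 libraries between 17.14 and 18.03. Values below are TMM-scaled counts-per-million (CPM), which compare libraries for 1 gene. Levels of different genes are compared only in transcripts-per-million (TPM), which divides by transcript length. A gene was called at an adjusted p under 0.05 in edgeR's quasi-likelihood test over all 14577 genes that passed the count filter, and rose or fell is written only of called genes.

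The targeted transcript was low in every siKeap1 library. Keap1 (GRCm38, chromosome 9, 21229730 to 21239361) stood at 60.6, 63.3 and 61.4 CPM in siCont and 10.2, 11.2 and 8.59 CPM in siKeap1. The groups did not overlap, and the siKeap1 mean was 16.2% of the control mean (log2 fold change -2.63, SE 0.071, adjusted p 1.1e-15). The antisense gene Gm16754 overlaps Keap1, and without strand information their shared reads cannot be told apart. For Fem1b, the target of the other siRNA, the log2 fold change was 0.074 (adjusted p 0.27). Nfe2l2, which encodes NRF2, stood at 136, 136 and 136 CPM in siCont and 102, 99 and 97.6 CPM in siKeap1, so that every siKeap1 library lay below every control. It fell by 0.45 on the log2 scale (adjusted p 5.5e-09), a change in its mRNA that says nothing of the protein.

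Of the 14577 genes tested, 6156 (42.2%) were called, 2681 higher (18.4%) and 3475 lower (23.8%). Most changes were small: the median absolute log2 fold change of the called genes was 0.31, and the median over all genes tested was -0.02. At least 1.5-fold changes were called for 1470 genes (10.1%), 965 higher (6.62%) and 505 lower (3.46%). At larger folds, 544 genes were at least 2-fold higher and 163 at least 2-fold lower, and 133 were at least 4-fold higher against 38 lower. The 3 siKeap1 libraries did not overlap the 3 siCont libraries for 7458 genes (51.2%). The share called is given by level. Of the 3645 genes lowest by mean CPM 19.3% were called, and of the 3644 highest 53.8%, whereas changes of at least 1.5-fold were called for 17.5% of the lowest and 4.77% of the highest. The excess of lower over higher calls depended on the setting: the first of the 2 runs taken alone gave 2198 higher and 2181 lower, and scaling by library totals 3021 higher and 2960 lower. A filter of 5 CPM in 3 libraries left 797 genes with a called change of at least 1.5-fold, 481 higher and 316 lower.

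**Figure D1:**
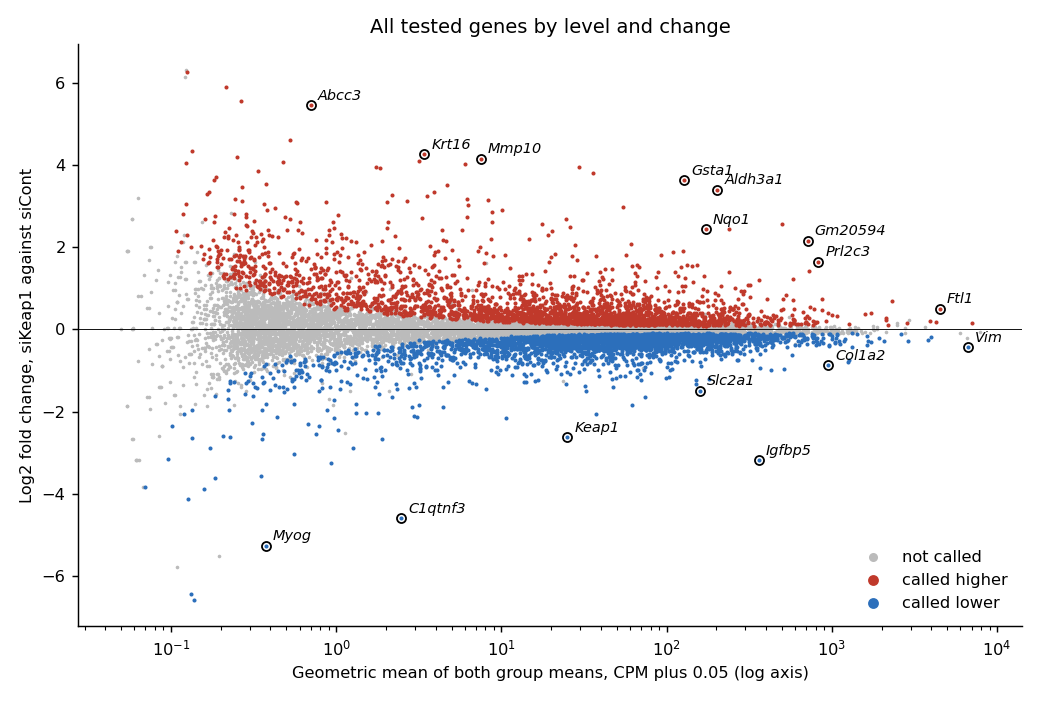
Each point is 1 of the 14577 genes tested: the x axis (log scale) is the geometric mean of both group means in CPM plus 0.05, and the y axis is the log2 fold change of siKeap1 against siCont, with all called genes in colour, whatever their fold change. The 2681 higher and 3475 lower genes lie at all levels, and the widest changes are those of genes at low CPM.

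Of 20 tested genes of the KEAP1 ligase and of NRF2 control, 4 were called higher and 6 lower (median log2 fold change -0.08, beside -0.02 over all genes). These counts are near the shares over all genes tested, 18.4% higher and 23.8% lower. Sqstm1, which encodes the autophagy receptor p62 that binds KEAP1, stood at 661, 699 and 674 CPM in siCont and 1136, 1126 and 1141 CPM in siKeap1, without overlap, and rose 1.67-fold (adjusted p 4.0e-12). The small MAF partners Mafk (1.41-fold) and Mafg (1.27-fold) rose, and Nfe2l1, the paralog of Nfe2l2 that drives proteasome genes, fell 1.23-fold. The CUL3 and RBX1 subunits that KEAP1 joins changed by -0.12 (adjusted p 0.14) and -0.12 (adjusted p 0.11) on the log2 scale, below the threshold of a call.

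**Figure D2:**
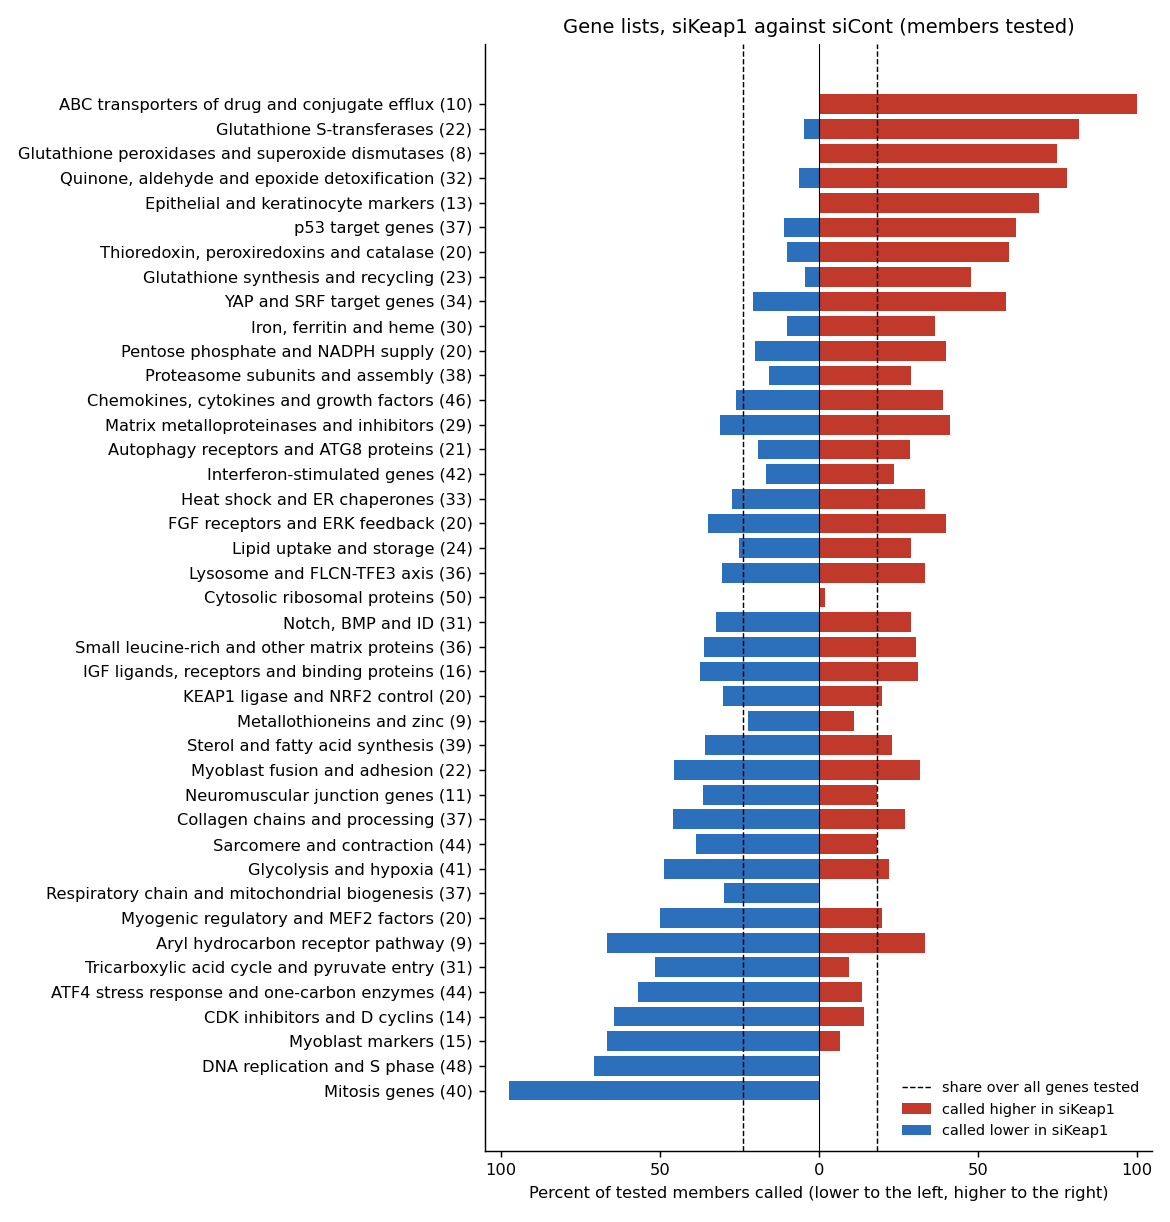
Bars give the percent of tested members of each gene list that were called lower (left) or higher (right) in siKeap1 against siCont, for lists with at least 8 members tested (number beside each name), and dashed lines mark the shares over all genes. ABC transporters, glutathione S-transferases and detoxification enzymes reach farthest to the right (10 of 10, 18 of 22 and 25 of 32), and mitosis genes farthest to the left (39 of 40).

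Glutathione genes were higher where they changed, with 1 exception. Of 23 tested, 11 were called higher and 1 lower (median log2 fold change 0.35). Slc7a11 (chromosome 3, 49892526 to 50443614), the light chain of the cystine/glutamate exchanger, stood at 19.9, 17.9 and 20.3 CPM in siCont and 161, 158 and 143 CPM in siKeap1 and rose 7.93-fold (adjusted p 4.1e-14). Glutamate-cysteine ligase makes the first bond of glutathione. Gclc, the catalytic subunit, stood at 73.2, 68.5 and 65.7 CPM in siCont and 179, 188 and 181 CPM in siKeap1 (2.64-fold higher), and Gclm, the modifier, at 82.5, 84 and 83.5 CPM in siCont and 242, 241 and 249.6 CPM in siKeap1 (2.93-fold higher). Groups did not overlap for any of the 3 genes. Glutathione synthetase (Gss) rose 2.03-fold and glutathione reductase (Gsr) 1.99-fold. Esd, an esterase that completes formaldehyde clearance through glutathione, rose 2.32-fold. Cth, which makes cysteine from cystathionine, was the member that fell (1.25-fold). The listed Ggt1 and Ggt5 did not pass the filter, with 1 and 5 counts in siCont and 12 and 9 in siKeap1.

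Among glutathione S-transferases, which join glutathione to electrophiles, 18 of 22 tested were called higher and 1 lower, with a median log2 fold change of 1.04. The alpha-class genes are given first. Gsta1 stood at 36.7, 34.9 and 37.1 CPM in siCont and 456, 452 and 436 CPM in siKeap1 (12.3-fold higher). Gsta2 stood at 7.28, 7.01 and 8.14 CPM in siCont and 117, 116 and 114 CPM in siKeap1 (15.4-fold higher), and Gsta3 at 0.417, 0.605 and 0.244 CPM in siCont and 5.86, 6.52 and 6.9 CPM in siKeap1 (15.6-fold higher). All siKeap1 libraries lay far above all controls, but these 3 genes and unlisted alpha copies are close in sequence, and the division of reads among them is uncertain. Gsta4, which takes lipid aldehydes such as 4-hydroxynonenal, rose 5.4-fold from 103, 104 and 99.9 to 559, 546 and 552 CPM. The mu-class Gstm1 rose 3.51-fold, from 48.3, 52.4 and 47.1 to 173, 169 and 176 CPM. The membrane enzyme Mgst1 was nearly silent in controls, at 0.783, 1.12 and 0.733 CPM, and reached 7.49, 7.72 and 7.63 CPM with siKeap1 (8.8-fold higher). Mgst2, which makes leukotriene C4, rose 5.36-fold. Gstm6 had 0 counts in the siCont libraries and 28 in the siKeap1 libraries. Gstcd, a relative without known conjugating activity, was the 1 member called lower, at a log2 fold change of -0.20. Of 26 listed genes, 4 were not tested: Gstm3 (0 counts in siCont and 12 in siKeap1), Gstm4 (2 and 8), Gstp3 (1 and 1) and Gsta13, which has no entry under that symbol.

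Thioredoxin genes were called higher for 12 of 20 and lower for 2 (median 0.21), beside 18.4% higher and 23.8% lower over all genes tested. Txnrd1, the cytosolic thioredoxin reductase, stood at 440.5, 446 and 459 CPM in siCont and 1191, 1176 and 1208 CPM in siKeap1 (2.66-fold higher), and Cat, the peroxisomal catalase, at 76.7, 74 and 78.6 CPM in siCont and 227, 227 and 228 CPM in siKeap1 (2.97-fold higher). Srxn1, which repairs overoxidised peroxiredoxins, stood at 144, 150.0 and 150.1 CPM in siCont and 316, 317 and 295 CPM in siKeap1 (2.09-fold higher). None of these overlapped its controls. The peroxiredoxin Prdx6 rose 1.9-fold. Txnip, which binds and inhibits thioredoxin, fell 2.0-fold, from 27.4, 25.5 and 26 to 15.3, 12.6 and 11.8 CPM. Among glutathione peroxidases and superoxide dismutases, 6 of 8 tested were called higher and 0 lower, with smaller changes: Sod1 rose 1.55-fold, Sod3 1.5-fold and Gpx8 1.22-fold. The log2 fold changes of Gpx1 (0.17) and Gpx4 (0.13) lost their call without siCont replicate 1 (0.13 and 0.084) and without siCont replicate 3 (0.13 and 0.11), and that of Gpx4 also without any 1 of the siKeap1 libraries (0.12, 0.14 and 0.13 without replicates 1, 2 and 3). Among metallothionein and zinc genes Mt1 (log2 fold change -0.10, adjusted p 0.48) and Mt2 (0.030, adjusted p 0.89) were not called, in a list of 9 tested genes with 1 called higher and 2 lower.

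NADPH supply genes moved both ways. Of 20 tested, 8 were called higher and 4 lower (median 0.1), beside 18.4% higher and 23.8% lower over all genes tested. The cytosolic dehydrogenases that make NADPH in the pentose phosphate pathway rose: G6pdx stood at 213, 220.3 and 213 CPM in siCont and 452, 452 and 456 CPM in siKeap1 (2.1-fold higher), and Pgd at 235, 243 and 239 CPM in siCont and 550.5, 542 and 559 CPM in siKeap1 (2.3-fold higher). The non-oxidative enzymes Tkt and Taldo1 rose 1.58-fold and 1.61-fold, and malic enzyme Me1 rose 1.58-fold. Pgls and Rpia, enzymes of the same pathway, fell, with log2 fold changes of -0.26 and -0.25, as did the mitochondrial Mthfd2 (-0.47) and Idh2 (-0.28).

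Enzymes that reduce or oxidise quinones, aldehydes and epoxides were called higher for 25 of 32 tested and lower for 2 (median 0.66), and 17 rose at least 1.5-fold. Nqo1 (chromosome 8, 107388225 to 107403206), the quinone reductase often used to report NRF2 activity, stood at 70.2, 74.7 and 77.3 CPM in siCont and 408, 411 and 383 CPM in siKeap1 (5.41-fold higher). Aldh3a1, an aldehyde dehydrogenase abundant in cornea, stood at 61.5, 61.6 and 64.2 CPM in siCont and 664, 665 and 645 CPM in siKeap1 (10.5-fold higher). Cbr3, a carbonyl reductase, stood at 13.3, 14.3 and 13.6 CPM in siCont and 57.2, 56.4 and 57.3 CPM in siKeap1 (4.16-fold higher). Every siKeap1 library lay above every control for the 3 genes. Ptgr1, which reduces reactive alkenals, rose 3.76-fold, the aldehyde oxidase Aox1 3.59-fold and the epoxide hydrolase Ephx1 2.97-fold. The 2 members called lower were Nqo2 (-0.18) and Akr7a5 (-0.16). Of 36 listed, 4 were not tested, with at most 19 counts over a group: Aldh1a1, Aldh1a7, Akr1b7 and Akr1c18.

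All 10 tested efflux transporters of the ABC family were called higher (median 0.46), and the list's Abcc2 was not tested, with 10 counts in siCont and 20 in siKeap1. Abcc3, an exporter of glucuronide conjugates, had 9 counts over the siCont libraries and 403 over the siKeap1 libraries, a ratio of 45.7 (95% exact interval 23.8 to 101). Abcc4 stood at 72, 68.9 and 76.1 CPM in siCont and 209, 212 and 198 CPM in siKeap1, without overlap (2.85-fold higher). Abcc1, the exporter of glutathione conjugates, rose 1.42-fold, and the drug exporter Abcb1a had a count ratio of 6.17 (95% exact interval 3.98 to 9.93). Count intervals cover counting error only. With an offset for transcript length 6 of the 10 were called higher.

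Heme and iron genes were called higher for 11 of 30 tested and lower for 3 (median 0.12). The heme-degrading enzyme Hmox1 stood at 49.5, 49.9 and 48.4 CPM in siCont and 112, 107 and 116 CPM in siKeap1 (2.27-fold higher), and biliverdin reductase B (Blvrb) at 10.2, 12.6 and 10.1 CPM in siCont and 59.6, 63.8 and 61.3 CPM in siKeap1 (5.64-fold higher). The heme transporter Slc48a1 stood at 145, 151 and 145 CPM in siCont and 385, 381 and 401 CPM in siKeap1 (2.65-fold higher). None of the 3 overlapped its controls. The heavy chain of the iron store ferritin (Fth1) rose 1.31-fold. Alas1, the first enzyme of heme synthesis, rose 1.46-fold, and the heme exporter Flvcr1 rose 1.38-fold. The iron importer Tfrc was not called (log2 fold change -0.15, adjusted p 0.38).

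Genes of the aryl hydrocarbon receptor, a ligand-activated factor for xenobiotic enzymes, moved both ways, with 3 of 9 called higher and 6 lower (median -0.4, or -0.23 with an offset for transcript length). Cyp1a1, its best known target, stood at 2.32, 1.85 and 2.32 CPM in siCont and 18, 19.4 and 15.9 CPM in siKeap1 (8.13-fold higher), and the receptor Ahr stood at 22.7, 20.7 and 24 CPM in siCont and 43, 43.4 and 43.3 CPM in siKeap1 (1.92-fold higher). Cyp1b1, another target, fell 1.71-fold from 116, 115 and 125 to 69.9, 74.2 and 64.4 CPM. The partner Arnt fell 1.32-fold, and its relative Arnt2 rose 1.64-fold. Nfe2l2, whose fall is given above, is also counted in this list.

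Short promoter windows of 7 risen genes are shown because antioxidant response elements are the sites through which NRF2 is known to act. RefSeq windows (GRCm38.p6) from 250 bases before to 50 after a gene's start were searched on both strands for TGACNNNGC, the core of that element, which can overlap sites of AP-1 factors. Capitals mark the match, and each run is read along the gene's strand.
Gclm: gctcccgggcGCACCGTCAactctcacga
Txnrd1: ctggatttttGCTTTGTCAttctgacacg
Srxn1: gcagtgggcaGCTAGGTCAgagtgagaca
G6pdx: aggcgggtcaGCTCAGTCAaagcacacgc
Pgd: atttcagagcTGACATTGCactgatcgga
Me1: gatgccgccgTGACTCAGCgcttctcgcg
Mgst1: gcggggcttgGCACGGTCAggaggcgggg
They lie at chr3:122245413-122245441 plus (Gclm), chr10:82859104-82859132 plus (Txnrd1), chr2:152105542-152105570 plus (Srxn1), chrX:74428919-74428947 minus (G6pdx), chr4:149166061-149166089 minus (Pgd), chr9:86695902-86695930 minus (Me1) and chr6:138140461-138140489 plus (Mgst1). The 7 are only part of the matches found, and not those with the largest rises. The motif was held by 15 of 51 genes with a window that were named for a rise or gain, or in the KEAP1 and antioxidant lists. Of 10825 tested genes with a window, 1764 (16.3%) held the motif. It was held by 15 of 101 genes at least 4-fold higher (14.9%), 55 of 399 at least 2-fold higher (13.8%), 123 of 720 at least 1.5-fold higher (17.1%) and 50 of 353 at least 1.5-fold lower (14.2%), shares close to that of all windows. By list, 4 of 17 thioredoxin genes, 4 of 20 glutathione S-transferases, 3 of 18 glutathione genes, 3 of 16 NADPH supply genes, 4 of 24 iron genes, 3 of 7 ABC transporters and 2 of 25 detoxification genes (8.0%) held it. A match is a description of these letters only, and elements outside a 300-base window were not searched.

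The genes with the widest changes were taken among called genes with a group mean of at least 5 CPM and no overlap of the groups. They were mostly outside the antioxidant lists. The 15 largest rises ran from 8.8-fold (Mgst1) to 19.1-fold (Krt16). Krt16 (chromosome 11, 100246091 to 100248902), a keratin of stressed epidermis, stood at 0.887, 0.669 and 0.684 CPM in siCont and 13.8, 15.1 and 14.3 CPM in siKeap1. Mmp10, a secreted metalloproteinase (stromelysin-2), stood at 1.83, 1.5 and 1.88 CPM in siCont and 30.9, 33.9 and 28.7 CPM in siKeap1 (17.8-fold higher), and Il1f9, an IL-36 cytokine, at 0.6, 0.637 and 0.954 CPM in siCont and 13.8, 13.5 and 10.9 CPM in siKeap1 (17.1-fold higher). All were near absent in every control and present in every siKeap1 library. Slpi, a secreted inhibitor of neutrophil proteases, stood at 1.38, 1.37 and 1.32 CPM in siCont and 16.8, 14.8 and 15.1 CPM in siKeap1 (11.4-fold higher). Clec4d, a C-type lectin receptor of myeloid cells, stood at 0.365, 0.414 and 0.538 CPM in siCont and 6.83, 6.55 and 7.03 CPM in siKeap1 (15.3-fold higher), and Trdc, the constant segment of the T cell receptor delta chain, at 1.38, 1.53 and 1.44 CPM in siCont and 24, 25.2 and 22 CPM in siKeap1 (16.4-fold higher). These are immune genes by name, and leukocyte markers are given below. Calr3, a calreticulin of the endoplasmic reticulum known from testis, rose 9.44-fold from 0.913, 1.31 and 1.15 to 10.3, 10.3 and 11.1 CPM. Cyp11a1, the mitochondrial enzyme that starts steroid synthesis, rose 9.01-fold, the orphan receptor Gprc5c 9.65-fold and the epidermal protein Sbsn 8.83-fold.

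The 15 largest falls ran from 2.74-fold (Tysnd1) to 24.1-fold (C1qtnf3). C1qtnf3 (chromosome 15, 10952332 to 10980150), a secreted protein of the C1q and TNF family, stood at 11.1, 11.7 and 12.1 CPM in siCont and 0.406, 0.442 and 0.581 CPM in siKeap1. Igfbp5, which binds insulin-like growth factors, stood at 1073, 1074 and 1117 CPM in siCont and 134, 113 and 111 CPM in siKeap1 (9.11-fold lower). Ung, which removes uracil from DNA, stood at 21.6, 24.5 and 21.7 CPM in siCont and 5.33, 4.86 and 4.89 CPM in siKeap1 (4.49-fold lower). The fall left C1qtnf3 below 1 CPM in all 3 siKeap1 libraries. Groups did not overlap for any of the 15, because that was a condition of the choice. Cd200, a membrane glycoprotein that restrains myeloid cells, fell 4.29-fold from 5.76, 6.27 and 6.04 to 1.06, 1.38 and 1.72 CPM, and Islr, a secreted leucine-rich repeat protein, fell 4.39-fold from 5.4, 7.07 and 6.5 to 1.72, 1.56 and 1.06 CPM. Vgll2, a TEAD cofactor of skeletal muscle, fell 4.14-fold, from 77.9, 78 and 70.4 to 17.6, 17.3 and 19.7 CPM. Synpo2l, a Z-disc protein, fell 3.55-fold, the guidance cue Ntn1 3.58-fold, the kinase Nek3 3.73-fold and the neuronal pentraxin Nptx1 3.14-fold. Slc2a1, the glucose transporter GLUT1, stood at 267, 269 and 262 CPM in siCont and 95.2, 96.4 and 92.6 CPM in siKeap1 (2.81-fold lower). Keap1 itself is among these falls.

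**Figure D3:**
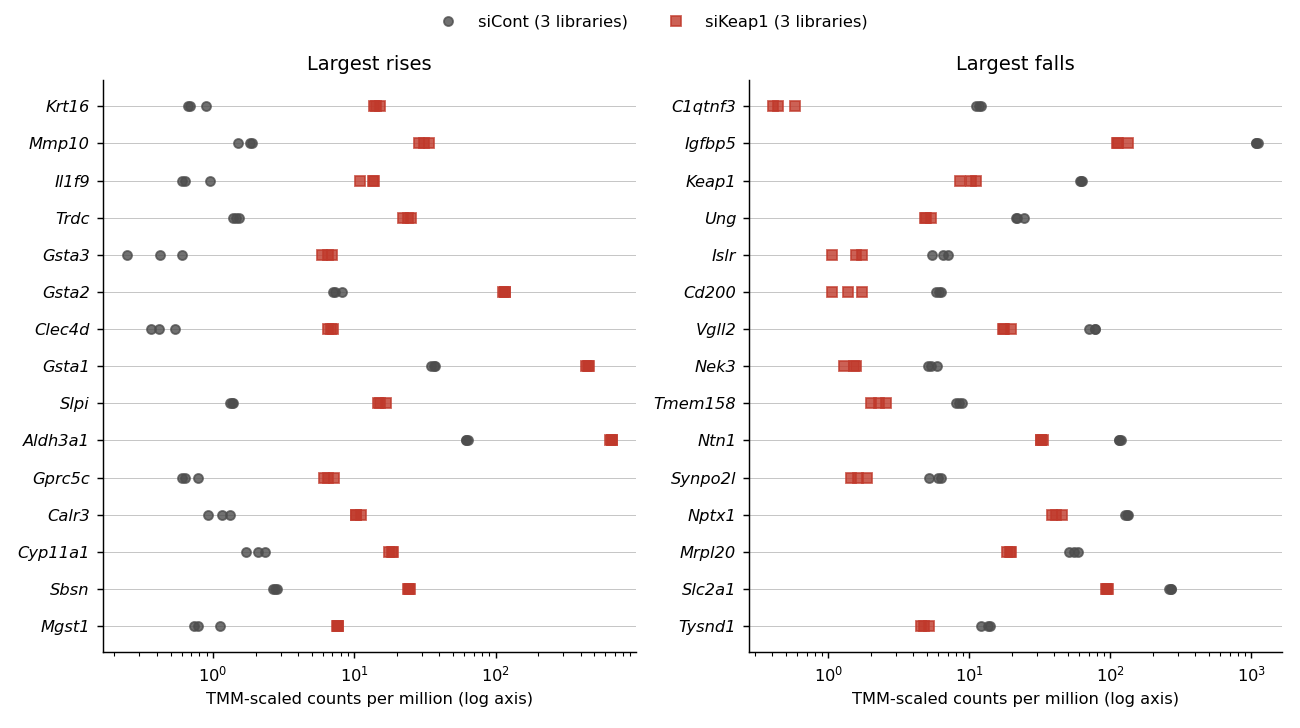
Points are the TMM-scaled CPM (log axis) of each siCont and siKeap1 library for the 15 largest rises and the 15 largest falls, in order of fold change. The 3 libraries of a group lie close together for nearly every gene, and the groups do not overlap, which was a condition for being shown.

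Counted in transcripts rather than folds, the largest gains were in a few abundant genes. Mean TPM of Ftl1, the ferritin light chain, went from 7531 to 10620 (1.42-fold in counts). Prl2c2 and Prl2c3, secreted proliferins, went from 528 to 3025 TPM and from 1167 to 3604 TPM, and Esd from 884 to 1986 TPM. Ftl1 has close relatives in the genome and the proliferins are near-identical copies, so their shares of reads are uncertain. The largest gain of all, Gm20594, went from 2512 to 10980 TPM. This 449-base transcript shares 42 of its 419 stretches of 31 bases (10%) with the mitochondrial 16S ribosomal RNA gene mt-Rnr2, which has 0 transcripts in the deposited tables, so the gain may not be that of a separate gene's mRNA. The largest losses that were called were in Lgals1 (8587 to 7018 TPM), the intermediate filament Vim (6209 to 4705 TPM) and Ptma (2922 to 2349 TPM). Vim, a filament of migrating and immature muscle cells, fell 1.34-fold.

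Protein turnover genes moved both ways. Over all genes tested 42.2% were called, 18.4% higher and 23.8% lower. Of 38 proteasome genes tested, 11 were called higher and 6 lower (median 0.03), and Psmd11, a lid subunit, rose most (1.34-fold). The core subunits Psma5, Psma7 and Psma4 rose 1.26-, 1.2- and 1.16-fold, and the lid subunit Psmd3 fell 1.17-fold. The count of higher genes was 6 without siCont replicate 1 and 7 without siKeap1 replicate 1, and the count of lower genes was 1 without siCont replicate 2 and 2 without siKeap1 replicate 2. With an offset for transcript length 7 were higher and 2 lower. Autophagy genes were called higher for 6 of 21 and lower for 4. Gabarapl1, an ATG8 protein, rose 1.53-fold and the receptor Optn 1.31-fold, whereas the mitophagy receptor Bnip3 fell 1.45-fold and the initiating kinase Ulk1 1.25-fold. Of 36 lysosome genes, 12 were called higher and 11 lower. Those higher included the protease Ctsd (1.66-fold, from 382, 414 and 382 to 640.1, 639 and 672 CPM), the glucosidase Gaa (1.45-fold), and the regulators Tfe3 (1.35-fold) and Mitf (1.82-fold). Rragd, a GTPase that ties these factors to mTORC1, fell, with a log2 fold change of -0.79.

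Genes of glucose uptake and hypoxia fell in larger number than they rose: 20 of 41 were called lower and 9 higher (median -0.21). Besides Slc2a1, the lactate exporter Slc16a3 stood at 21.2, 22.8 and 20.4 CPM in siCont and 8.2, 8.76 and 9.38 CPM in siKeap1 (2.43-fold lower). Pdk1, a kinase that inhibits pyruvate dehydrogenase, stood at 21.6, 20.4 and 21.2 CPM in siCont and 11.8, 11.2 and 11.8 CPM in siKeap1 (1.83-fold lower). Both were lower in every siKeap1 library. The enzymes themselves divided: the liver-type phosphofructokinase Pfkl fell 1.4-fold while the muscle-type Pfkm rose 1.45-fold, and Gapdh was not called (log2 fold change -0.019, adjusted p 0.84). Slc2a1 carries a seed match to the siKeap1 guide, described below. In the tricarboxylic acid cycle 16 of 31 were called lower and 3 higher (median -0.12). Pyruvate carboxylase (Pcx), which refills the cycle, stood at 14.1, 16 and 13 CPM in siCont and 49.2, 51.2 and 48 CPM in siKeap1 (3.46-fold higher), while the succinate dehydrogenase subunit Sdhb fell 1.51-fold and the pyruvate dehydrogenase subunit Pdhb 1.3-fold. Glutamine synthetase (Glul) rose 1.28-fold. Of 37 respiratory chain and biogenesis genes 11 were called lower and 0 higher (median -0.1), beside 23.8% lower and 18.4% higher over all genes tested. Those lower included Atp5a1 (1.28-fold), Uqcrfs1 (1.3-fold) and the coactivator Ppargc1b (1.56-fold). The first run alone gave 7 lower for each of these 2 lists, and without siCont replicate 2 the respiratory list had 3 higher. That list holds no mitochondrially encoded gene. Of the 3 such genes named by the rule on TPM, mt-Nd3 rose 1.86-fold (adjusted p 6.8e-04), mt-Atp6 rose 1.21-fold (adjusted p 0.031), and mt-Co1 was not called (log2 fold change -0.22, adjusted p 0.060). The call of mt-Atp6 was lost with the replicate block (adjusted p 0.059) and without siCont replicate 1 (0.112). It was also lost without siCont replicate 2 (0.125) and without siKeap1 replicate 3 (0.112).

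Targets of the amino acid stress factor ATF4 were called lower for 25 of 44 and higher for 6 (median -0.15); the first run alone gave 16 lower. Slc7a11, counted above with glutathione, belongs to this list too. Mthfd2 stood at 124, 131 and 124 CPM in siCont and 89.8, 90.5 and 93.3 CPM in siKeap1 (1.38-fold lower), and Atf4 itself fell (log2 fold change -0.35, adjusted p 8.5e-06). The members that rose were carriers and secreted or regulatory genes. Gdf15, a stress hormone, stood at 39.5, 43.7 and 37 CPM in siCont and 116, 111 and 118 CPM in siKeap1 (2.87-fold higher). The neutral amino acid carriers Slc1a4 and Slc1a5 rose 1.74-fold and 1.35-fold, and the factor Cebpb rose 1.63-fold.

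Of 39 sterol and fatty acid synthesis genes, 14 were called lower and 9 higher, beside 23.8% lower and 18.4% higher over all genes tested. The sterol reductase Dhcr7 fell 1.41-fold, the sterol sensor partner Insig1 1.35-fold and Acsl4, which activates arachidonate, 1.87-fold. With an offset for transcript length 5 of them were called higher. Lipid uptake and storage genes were called higher for 7 of 24 and lower for 6: the carnitine transferase Cpt1a rose 1.33-fold and the droplet protein Plin4 fell 1.35-fold.

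Acss2, which makes acetyl-CoA from acetate, shares a stretch of the genome with another risen gene. It stood at 8.71, 8.66 and 8.56 CPM in siCont and 42.1, 44.3 and 41 CPM in siKeap1 (4.91-fold higher), whereas its mean TPM went from 5.15 to 53. Acss2 (GRCm38, chr2:155517948-155585724, plus strand) overlaps Gss (chr2:155563181-155592810, minus strand), which also rose. Acss2 transcripts that lie inside Gss summed to 1.36, 0.0 and 0.66 TPM in siCont and 36.6, 40.3 and 27.7 TPM in siKeap1. Those that do not lie wholly inside it summed to 4.59, 4.45 and 4.4 TPM in siCont and 17.87, 18.72 and 17.92 TPM in siKeap1. Of the latter, Acss2-201, which ends before Gss begins, stood at 4.39, 4.26 and 4.06 TPM in siCont and 17.1, 17.4 and 16 TPM in siKeap1, without overlap, whereas Acss2-202 runs into Gss. The reads of the overlap cannot be told apart between the genes.

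Cell cycle genes were mostly lower. Of 40 mitosis genes 39 were called lower and 0 higher, with a median log2 fold change of -0.33. Top2a, the topoisomerase that untangles chromosomes, changed most and stood at 702, 690.1 and 730.2 CPM in siCont and 467, 468 and 445 CPM in siKeap1 (1.54-fold lower). Cyclin A (Ccna2) stood at 291, 296 and 308 CPM in siCont and 209, 213 and 202 CPM in siKeap1 (1.43-fold lower), and Racgap1, needed for cytokinesis, fell 1.43-fold. Of 48 replication genes 34 were called lower and 0 higher (median -0.22). Besides Ung, the initiation factor Mcm10 fell 1.91-fold and cyclin E (Ccne1) 1.72-fold, while Pcna was not called (log2 fold change -0.070, adjusted p 0.17). Cdkn1a, which encodes the CDK inhibitor p21, stood at 129, 136 and 129 CPM in siCont and 205, 205 and 213 CPM in siKeap1 (1.58-fold higher), without overlap. The inhibitors Cdkn1b, Cdkn2c and Cdkn2d fell 1.33-, 1.34- and 1.48-fold, and in their list of 14 with the D cyclins 2 were called higher and 9 lower. Of 37 listed p53 target genes 23 were called higher and 4 lower (median 0.33), and with an offset for transcript length 1 was lower. Plk3 rose 1.83-fold, Zmat3 1.66-fold and Plk2 1.44-fold, whereas Trp53 itself was not called (log2 fold change 0.023, adjusted p 0.71). This list shares Ephx1 with the detoxification list and Gdf15 with the ATF4 list.

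Myoblast identity genes were present in both groups and mostly lower with siKeap1. Of 15 myoblast markers 10 were called lower and 1 higher, and their summed level was 1274 to 1345 TPM in siCont and 1117 to 1130 TPM in siKeap1. In bulk samples fewer cells of a type and less RNA per cell cannot be told apart. Myod1, the factor that fixes the muscle lineage, stood at 88, 86.4 and 90.5 CPM in siCont and 64.4, 58 and 65.9 CPM in siKeap1 (1.41-fold lower), and the muscle cadherin Cdh15 stood at 284, 298 and 281 CPM in siCont and 197, 182 and 198 CPM in siKeap1 (1.49-fold lower). Neither overlapped its controls. Heyl, a Notch target, fell 4.5-fold and Fgfr4, the myoblast FGF receptor, 3.51-fold, while desmin (Des) was not called (log2 fold change -0.10, adjusted p 0.085).

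Of 20 myogenic regulatory factors 10 were called lower and 4 higher (median -0.15), beside 23.8% lower and 18.4% higher over all genes tested. Myog, the factor that starts terminal differentiation, had 171 counts over the siCont libraries and 4 over the siKeap1 libraries, 41.9 (95% exact interval 16.1 to 155) times fewer. Msc (MyoR) and Id3, which oppose MYOD1 activity, rose 1.66-fold and 1.37-fold. Among 44 sarcomere and contraction genes 17 were called lower and 8 higher (median -0.32). The light chain Myl1 stood at 3.16, 3.82 and 2.86 CPM in siCont and 0.312, 0.52 and 0.449 CPM in siKeap1 (7.45-fold lower), the slow troponin Tnnt1 had 12.5 (95% exact interval 6.11 to 29.7) times fewer counts, and the calcium pump Atp2a1 fell 3.87-fold. Skeletal actin (Acta1) went the other way, at 7.8, 6.75 and 6.11 CPM in siCont and 14.2, 13.3 and 13.2 CPM in siKeap1 (1.96-fold higher), and the Z-disc gene Ldb3 rose 1.67-fold. Of 22 fusion and adhesion genes 10 were called lower and 7 higher: the fusogen Mymk fell 2.44-fold and caveolin Cav1 1.68-fold, and the membrane repair gene Dysf rose 1.82-fold, a call lost with an offset for transcript length (log2 fold change 0.52). The embryonic acetylcholine receptor subunit Chrng fell 5.1-fold and Chrnd 1.8-fold, while Musk and its activator Dok7 rose 1.45-fold and 1.71-fold. Their list of 11 had 2 called higher and 4 lower, with a median of -0.24 that was -0.077 without siCont replicate 3, -0.067 without siKeap1 replicate 1 and -0.016 in the first run alone. In the first run alone, 6 myogenic factors and 8 sarcomere genes were called lower.

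Genes of the IGF system moved both ways. Of 16 genes 5 were called higher, or 3 with an offset for transcript length, and 6 lower. The shares over all genes tested were 18.4% higher and 23.8% lower. Against the fall of Igfbp5, Igfbp3 stood at 4.72, 4.84 and 4.64 CPM in siCont and 17.3, 16.1 and 15.7 CPM in siKeap1 (3.46-fold higher) and Igfbp6 rose 1.91-fold. The ligand Igf2 had 35 counts over the siCont libraries and 2 over the siKeap1 libraries, and the receptor Igf1r had a log2 fold change of -0.18. The signalling adaptor Irs1 fell 1.4-fold, and the RNA-binding Igf2bp2 and Igf2bp3 fell 1.32-fold and 1.68-fold. The call of Igf2bp3 was lost with an offset for transcript length.

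Matrix genes moved in both directions. Of 37 collagen genes 17 were called lower and 10 higher (median -0.13), beside 23.8% lower and 18.4% higher over all genes tested. Chains of fibrillar collagen I and III fell: Col1a2 stood at 1304, 1298 and 1236 CPM in siCont and 703, 701 and 703 CPM in siKeap1 (1.82-fold lower), and Col3a1 at 1631, 1659 and 1666 CPM in siCont and 1026, 987 and 952 CPM in siKeap1 (1.67-fold lower). The basement membrane chain Col4a2 stood at 322, 307 and 313 CPM in siCont and 528, 507 and 543 CPM in siKeap1 (1.67-fold higher), and Col5a3 rose 2.37-fold. Every siKeap1 library differed from every control in the direction given. Of 36 other matrix proteins 11 were called higher and 13 lower: nidogen-1 (Nid1) rose 1.6-fold while nidogen-2 (Nid2) fell 1.56-fold, Ecm1 and Matn2 rose 1.72-fold and 1.53-fold, and thrombospondin-2 (Thbs2) fell 1.47-fold. Among 29 metalloproteinases, related proteases and inhibitors 12 were called higher and 9 lower. Next to Mmp10 and Slpi, tissue plasminogen activator (Plat) rose 1.85-fold and Adam8 1.53-fold, while urokinase (Plau) fell 1.74-fold and Mmp11 2.52-fold.

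Secreted signals included rises of several growth factors. Of 46 chemokine, cytokine and growth factor genes 18 were called higher and 12 lower. Beside this and the lists that follow stand 18.4% higher and 23.8% lower over all genes tested. Areg, a ligand of the EGF receptor, stood at 17.2, 20.2 and 19.2 CPM in siCont and 40.0, 38 and 39.6 CPM in siKeap1 (2.08-fold higher), and Fgf7 rose 2.32-fold. The BMP antagonist Grem1 fell 1.68-fold. Receptors also shifted: Pdgfrb stood at 145, 148 and 148 CPM in siCont and 76.4, 78.7 and 66.7 CPM in siKeap1 (2.0-fold lower) whereas Pdgfra rose 1.48-fold, in a list of 20 FGF and ERK pathway genes with 8 higher and 7 lower. Spry1, a feedback inhibitor of that pathway, fell 5.44-fold. Of 34 YAP and SRF targets 20 were called higher and 7 lower (median 0.16): Ccn2 stood at 98.1, 93.9 and 99.4 CPM in siCont and 209.5, 198 and 244 CPM in siKeap1 (2.24-fold higher), Ccn1 rose 1.42-fold and smooth muscle actin gamma (Actg2) 1.66-fold, while Crim1 fell 1.81-fold. In the Notch and BMP list of 31, 9 were called higher and 10 lower, with Smad9 (1.94-fold) and Smad6 (1.64-fold) higher and Jag2 (1.29-fold) and Acvr2a (1.58-fold) lower. The first run alone gave 2 of the FGF and ERK genes, 4 of the YAP and SRF targets and 5 of the Notch and BMP genes lower.

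Of 42 interferon-stimulated genes 10 were called higher and 7 lower (median 0.17), near the shares over all genes tested, 18.4% higher and 23.8% lower. The higher count was 6 without siCont replicate 1 and 5 without siCont replicate 3, and the lower count 3 without siKeap1 replicate 3. With an offset for transcript length 5 were higher and 4 lower. The ubiquitin ligase Trim25 rose 1.26-fold and Stat2 fell 1.2-fold, a call lost with an offset for transcript length (log2 fold change -0.071 in place of -0.26, adjusted p 0.68). Among 33 chaperones 11 were called higher and 9 lower. The small heat shock genes Cryab and Hspb8 rose 2.01-fold and 1.64-fold, and the inducible Hspa1b rose 1.4-fold. Hspa5 and Pdia4, of the endoplasmic reticulum, fell 1.26-fold and 1.22-fold. Of 50 cytosolic ribosomal proteins 1 was called higher and 0 lower (median -0.01). That gene, Rpl5, lost its call without any 1 of 5 libraries (siCont replicates 1, 2 and 3 and siKeap1 replicates 1 and 3), and 4 were higher without siCont replicate 2. The list summed to 97590 TPM in siCont replicate 2 and to 88490 to 91830 TPM in the remaining siCont and siKeap1 libraries.

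Markers of other cell types were measured beside these changes. Of 13 epithelial and keratinocyte markers tested 9 were called higher and 0 lower, and their summed level was 59.6 to 64.3 TPM in siCont and 176 to 181 TPM in siKeap1. Krt14 stood at 10.7, 9.49 and 8.95 CPM in siCont and 62.1, 60.2 and 65 CPM in siKeap1 (6.44-fold higher), and Krt17 had a count ratio of 17.4 (95% exact interval 9.21 to 36.8). The defining epithelial marker Epcam had 1 count over the siCont libraries and 0 over the siKeap1 libraries, and Cdh1 was not called (log2 fold change 0.72, adjusted p 0.23). A filter of 5 CPM in 3 libraries left 3 epithelial markers called higher. Of 5 leukocyte markers tested 4 were called higher, and their summed level was 16.5 to 18.6 TPM in siCont and 29.8 to 33.3 TPM in siKeap1. The pan-leukocyte gene Ptprc had 15 counts in siCont and 12 in siKeap1, and the T cell gene Cd3e had 3 and 2, beside the rise of Trdc. Cd68, a lysosomal protein of macrophages also made by other cells, rose 2.3-fold. Endothelial markers summed to 0.554 to 0.787 TPM in siCont and 1.21 to 2.3 TPM in siKeap1, with 2 of 5 called higher, of which Tek lost its call without siCont replicate 1. Of 3 adipocyte markers tested 2 were called higher, and Adipoq had 1 count in siCont and 0 in siKeap1. Of 6 neural markers 1 was called higher (Tubb3, 1.42-fold) and 3 lower (Nefl, Nefm and Sox2).

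Short matches between an siRNA's seed and a 3′ UTR are known to lower mRNAs other than the target, so the searched UTRs are shown beside the falls. One transcript per gene was searched for GACACGG, the 7-base complement of the siKeap1 seed. Of 13778 genes searched, 336 (2.44%) held it, and 6 of the 15 largest falls did (40%). Of the 15 largest rises 14 could be searched, and 0 held it. The 6 are printed as 19-base windows aligned to the siRNA sense strand, with the match in capitals (GRCm38).
Ung: agtggagaaatGACACGGa
Tmem158: agggaagatttGACACGGa
Ntn1: agcccctcagtGACACGGc
Mrpl20: ctttattcagtGACACGGc
Slc2a1: taactgctgaaGACACGGa
Tysnd1: gccttaactcaGACACGGt
They lie at chr5:114138470-114138488 plus (Ung), chr9:123259188-123259206 minus (Tmem158), chr11:68211478-68211496 minus (Ntn1), chr4:155808763-155808781 plus (Mrpl20), chr4:119137145-119137163 plus (Slc2a1) and chr10:61702688-61702706 plus (Tysnd1), each in a 3′ UTR. With the 7 bases of the match counted, 8 to 12 of the 19 equal those of the siRNA sense strand.

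Carriers and non-carriers of the match were counted side by side. Of the 336, 162 (48.2%) were called lower and 39 (11.6%) higher, against 24.2% lower and 19.4% higher of the 13442 without the match. Their median log2 fold change was -0.17, against -0.02. For matches to the other siRNAs' seeds the medians were -0.04 for 3295 genes with the siCont match and -0.05 for 1732 with the siFem1b match. UTR length moved with these groups, at medians of 2235.5 bases (siKeap1 match), 2169 (siCont match) and 2468 (siFem1b match) against 908.5 without the siKeap1 match. The match was held by 46 of 482 searched genes at least 1.5-fold lower (9.54%) and by 12 of 934 at least 1.5-fold higher (1.28%). The 6 genes were also lower when siKeap1 was added to siFem1b: Ung by -2.17 without and -1.60 with siFem1b (log2 fold changes), Tmem158 by -1.89 and -2.0, Ntn1 by -1.84 and -1.45, Mrpl20 by -1.51 and -1.46, Slc2a1 by -1.49 and -1.30, and Tysnd1 by -1.45 and -1.25. Most called genes lacked the match, as did 97.6% of the genes searched, so leaving out its carriers could change the counts only a little. Without the carriers 5968 genes were called, 2580 higher and 3388 lower, and 466 were at least 1.5-fold lower. In the antioxidant lists (glutathione, glutathione S-transferases, thioredoxin, NADPH, detoxification, iron and ABC transporters) Srxn1 alone held it, and it rose. Of the other genes with values above, Mmp11 and Crim1 held it and fell, and Cebpb held it and rose. The part of the seed matches in these falls was not tested, since the libraries hold 1 siKeap1 duplex.

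**Figure D4:**
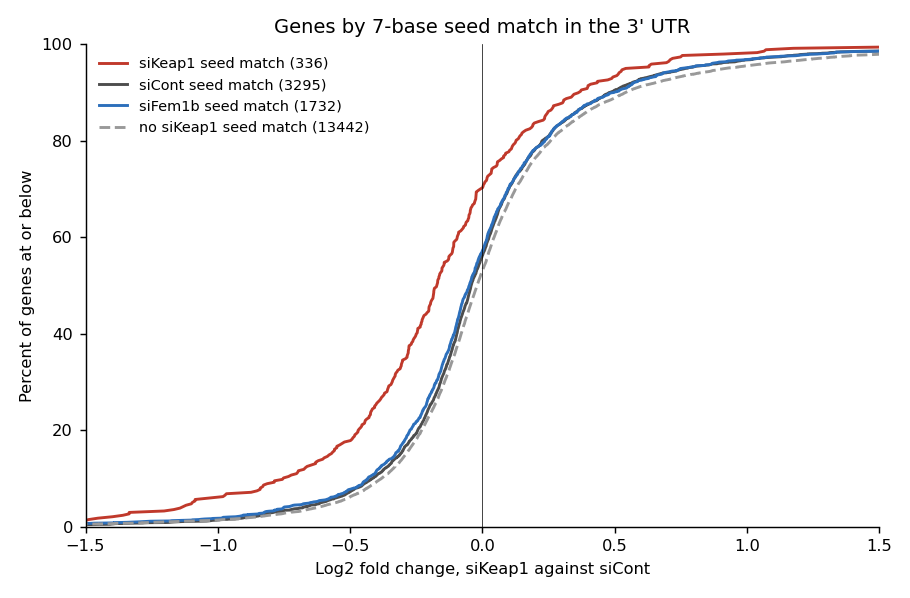
Cumulative percent of genes (y axis) at or below each log2 fold change of siKeap1 against siCont (x axis), for genes with a 7-base 3′ UTR match to the siKeap1, siCont or siFem1b seed and for genes without the siKeap1 match. The curve of the 336 genes with the siKeap1 match lies to the left, at a median of -0.17, and the others have medians of -0.02 to -0.05.

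The same siRNA was also compared in libraries that all received siFem1b (siFem1b/Keap1 against siFem1b, 3 against 3). FEM1B is the substrate adaptor of another cullin ligase, and the comparison asks whether the response to Keap1 depletion is the same when it is low. No library is shared with the comparison above. There 6284 genes (43.1%) were called, 3104 higher (21.3%) and 3180 lower (21.8%). Of the 2681 genes higher with siKeap1 alone 1810 (67.5%) were higher there too, which is 58.3% of its 3104, and 55 were lower. Of the 3475 lower genes 2255 (64.9%) were lower there too, which is 70.9% of its 3180, and 80 were higher. For changes of at least 1.5-fold, 678 of 965 higher genes (70.3%) and 408 of 505 lower genes (80.8%) were called in the same direction there.

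A test of the difference between the 2 effects called 1667 genes (11.4%), 891 with a higher (6.11%) and 776 with a lower (5.32%) log2 fold change under siFem1b. Of the genes at least 1.5-fold higher with siKeap1 alone 291 (30.2%) differed, 274 of them changing less with siFem1b, and of those at least 1.5-fold lower 156 (30.9%) differed, 145 changing less. These genes were chosen by a large change with siKeap1 alone, and the same values enter the difference. That choice by itself favours a smaller change with siFem1b, so the counts do not show a general weakening. Several antioxidant genes were among the 1667. The rise of Aldh3a1 was 10.5-fold without and 3.98-fold with siFem1b (log2 difference -1.40, SE 0.064, adjusted p 8.7e-11). That of Gclm was 2.93-fold and 1.22-fold (log2 difference -1.27, adjusted p 2.7e-10), and that of the alcohol dehydrogenase Adh7 2.94-fold against a log2 fold change of 0.0093 (adjusted p 0.91; difference -1.54). Nqo1 rose in both, 5.41-fold and 5.36-fold (log2 difference -0.015, adjusted p 0.91). Gsta1 and Gsta2 went the other way: Gsta1 rose 12.3-fold without and 24.2-fold with siFem1b (log2 difference 0.97, adjusted p 7.9e-06), and Gsta2 15.4-fold and 43.5-fold (log2 difference 1.5, adjusted p 9.4e-04). Gsta2 was near the floor in siFem1b (0.123, 0.112 and 0.131 CPM) and stood at 5.97, 5.29 and 5.08 CPM in siFem1b/Keap1. Gsta1 means were 1.65 and 40.1 CPM there, against 36.3 and 448 CPM in siCont and siKeap1. Gsta3 rose 15.6-fold without siFem1b and was not called with it, at means of 0.37 and 0.50 CPM (log2 fold change 0.44, adjusted p 0.30, difference -3.52). These copies share sequence, as stated above. Slc7a11 rose 7.93-fold without siFem1b. With it, the gene stood at 10.4, 11.4 and 9.44 CPM in siFem1b and 11.4, 9.17 and 11.9 CPM in siFem1b/Keap1, where the groups overlapped (log2 fold change 0.054, adjusted p 0.70; difference -2.93, adjusted p 3.7e-10). Keap1 itself fell in both, with log2 fold changes of -2.63 and -2.66 (difference -0.028, SE 0.10, adjusted p 0.90).

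Glutathione S-transferases were called higher for 18 of 22 without and 18 with siFem1b (medians 1.04 and 0.99), detoxification enzymes for 25 and 22 of 32 (medians 0.66 and 0.39), and glutathione genes for 11 and 12 of 23 (medians 0.35 and 0.24). The difference itself was called for 5, 12 and 12 of their members. Mitosis genes were called lower for 39 of 40 without and 40 with siFem1b (medians -0.33 and -0.51). Glycolysis and hypoxia genes were called lower for 20 and 14 of 41 (medians -0.21 and -0.01), and ATF4 targets for 25 and 31 of 44 (medians -0.15 and -0.38). Lysosome genes were called higher for 12 and lower for 11 of 36 without siFem1b, and for 24 and 2 with it, and 21 differed. Sarcomere genes were called lower for 17 and 35 of 44 (medians -0.32 and -1.15), and 16 differed. Interferon-stimulated genes were called higher for 10 and 23 of 42 (5 differed), and ribosomal proteins for 1 and 22 of 50 (3 differed). The difference was called for 11.4% of all genes tested, which is near the share of the interferon list and above that of the ribosomal list. A larger count of calls with siFem1b is not a test of the difference.

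**Figure D5:**
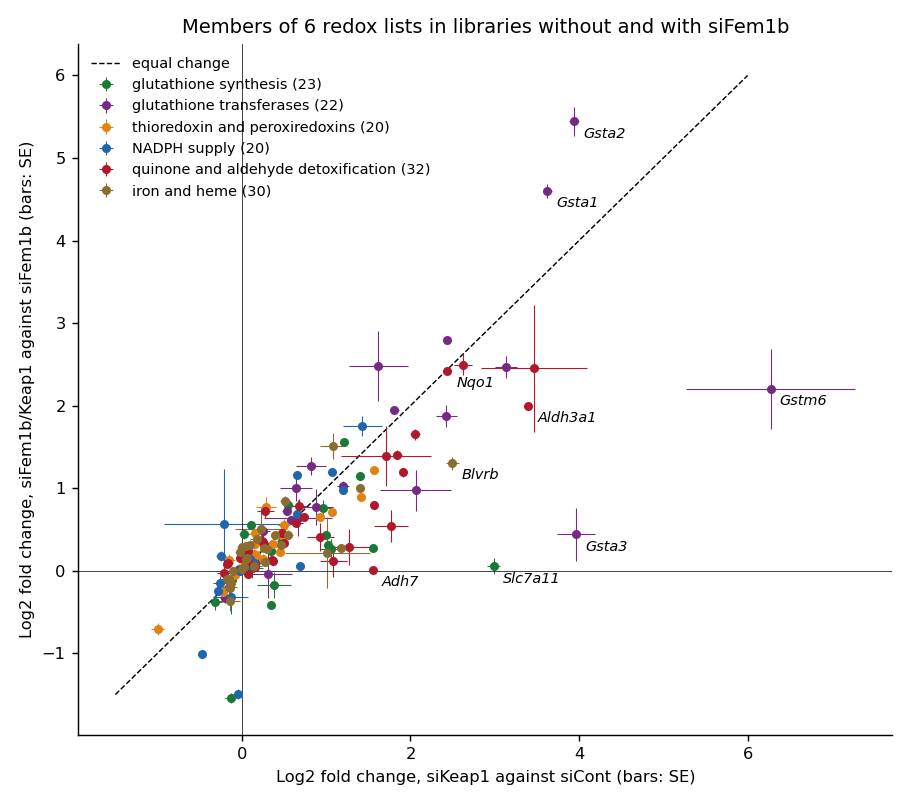
Each point is a gene of the antioxidant lists other than the ABC transporters, which are not drawn. Its log2 fold change for siKeap1 against siCont is on the x axis and that for siFem1b/Keap1 against siFem1b on the y axis (bars, standard errors), with the line of equal change. Aldh3a1 lies below the line (10.5-fold without and 3.98-fold with siFem1b), Gsta1 and Gsta2 above it, Slc7a11 near 0 on the y axis, and Gstm6, with 0 counts in siCont, lies at the far right.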

How the data were processed

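Poly(A)-selected RNA of 12 C2C12 libraries (3 per siRNA group) was sequenced in 2 runs each. Per the submitters' processing notes the build was mm10 and kallisto 0.44.0 was used; the file headers give estimated counts and TPM per transcript, as the authors deposited them. Other upstream settings and the strand setting are not given in the sources used here. Transcripts were assigned to genes with GENCODE M21 (GRCm38): 116728 of 118489 (98.5%) matched by identifier, and the 0.609 to 0.637% of counts without a match were left out. Estimated counts were summed over transcripts and runs and rounded. TPM was summed over transcripts and averaged over runs. Depth was 32080900 to 43256300 counts per library (to the nearest 100).

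Genes passing edgeR's filterByExpr (14577 of 35968) were normalised by TMM and fitted with robust quasi-likelihood over all 12 libraries (edgeR 4.0.16, R 4.3.3). Contrasts were siKeap1 minus siCont, siFem1b/Keap1 minus siFem1b, and their difference; p-values were Benjamini-Hochberg adjusted over all genes tested, and calls were made at 0.05. The fit was tested on simulated counts with known changes.

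The comparison, the gene lists and the rules were chosen with earlier results of these data known. Named genes are Keap1, Fem1b and Nfe2l2; the 15 largest rises and falls by fold (called, at least 5 CPM in the higher group, no overlap, no clone names); up to 6 members of each of 45 lists by smallest p, with a few central members; the 8 largest gains and losses in TPM; and the 8 smallest p-values of the difference. Other list members named in the text were chosen after their values were seen. A few results are not reported here. Low genes can pass the count filter through the group where they are high. Count ratios carry 95% exact intervals, which cover counting error only. Same-numbered siCont and siKeap1 libraries did not deviate together (r of -0.035, -0.068 and -0.14), so the numbers were not used as pairs. Alternatives were DESeq2 1.42.0, limma-voom (limma 3.58.1), other scalings and filters, single runs, a transcript-length offset and leaving out each library.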

Additional observations from a re-analysis of the deposited data

Results flagged for a closer look

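The effect of siKeap1 differed between libraries without and with siFem1b for 1667 genes by edgeR's test of the difference, and 149 of the 286 genes named by the rules were among them. A negative difference means a lower log2 fold change with siFem1b. For 7 of these genes both effects were called and were opposite. Gprc5c, an orphan receptor, rose by 3.27 on the log2 scale alone and had -0.49 with siFem1b, a difference of -3.76 (adjusted p 4.8e-10). The glycine transporter Slc6a9 stood at 28.3, 28.4 and 26.9 CPM in siCont and 75.4, 76.4 and 80.3 CPM in siKeap1, and at 29, 28.8 and 28.7 CPM in siFem1b and 26, 25.4 and 25.5 CPM in siFem1b/Keap1 (difference -1.64, adjusted p 1.1e-11). Gpr137b, a lysosomal membrane protein, had log2 fold changes of -0.19 and 0.90 (difference 1.09), Glul 0.36 and -0.31 (difference -0.67), Plin4 -0.44 and 0.21 (difference 0.65), Thbs2 -0.55 and 0.17 (difference 0.72), and Stat2 -0.26 and 0.32 (difference 0.58). With an offset for transcript length the first effect of Stat2 was -0.071 and its call was lost (adjusted p 0.68).

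The smallest p-values of the difference were those of Slc6a9, Aldh3a1 (difference -1.40), Gpr137b, Adh7 (-1.54), Acss2 (-1.88), Gclm (-1.27), Slc7a5 (-0.98) and Ass1 (-1.36). Slc7a5, a carrier of large neutral amino acids, had log2 fold changes of -0.25 and -1.22. Ass1, which joins citrulline and aspartate in arginine synthesis, stood at 36.3, 43.4 and 40.7 CPM in siCont and 103, 106 and 105 CPM in siKeap1, and at 148, 143 and 150.2 CPM in siFem1b and 151, 144 and 152 CPM in siFem1b/Keap1. The value of Acss2 includes reads of its overlap with Gss. All 6 of the Aldh3a1 values with siKeap1 lay above those of their own control groups. What sets these differences was not tested.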

How the results depend on the processing

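Of 286 named genes recomputed under 18 alternatives (5119 values), 5032 kept their side of the threshold, 61 lost and 26 gained a call, and 0 reversed. Genes that lost a call in some alternative numbered 21. A filter of 5 CPM in 3 libraries tested fewer genes and gave 797 called changes of at least 1.5-fold (481 higher, 316 lower), and under it the median of the matrix list was 0.002 in place of -0.1, the cause of which was not tested. The first run alone, with fewer counts, gave 2181 lower genes and 929 differing between the comparisons. That count was 880 at an adjusted p under 0.01 and 840 with a transcript-length offset. Leaving out 1 library gave 5330 to 5847 called genes, 2326 to 2549 higher, 3004 to 3298 lower, 1384 to 1465 at least 1.5-fold (905 to 966 higher, 479 to 514 lower), 5498 to 6109 called with siFem1b and 1259 to 1893 differences. The replicate block, for numbers that do not pair the libraries, gave 5926 called genes (2570 higher, 3356 lower), 1449 of at least 1.5-fold, and 1482 differences. Scaling by library totals shifted all log2 values by 0.028. Higher genes were 43.6% of calls and 42.0 to 50.5% under the alternatives. Genes of few counts are limited by depth, and a change in total RNA per cell cannot be seen in these values.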
